A study of Oryza sativa with 4 samples.

Results

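The genes described here are F-box protein genes that the authors placed near binding regions of the rice transcription factor OsMADS2. They were taken from the deposited gene table as entries whose Oryzabase symbol holds OsFbox or Os_F followed by a number. This gave 35 of the 2589 genes in the table. Of these, 3 were left out because the authors' gene ontology table lists them under auxin signaling or osmotic stress (OsAFB2, OsKMD4 and OsFbox347), which left 32 genes. They lay near 33 of the 1442 regions, since OsFbox219 had 2 regions and no region was shared by a pair of them. The label rests on gene symbols, and no protein domain was examined.

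OsMADS2 was profiled by chromatin immunoprecipitation and sequencing (ChIP-seq) in wild-type TP309 rice panicles of 0.3 to 2 cm. The OsMADS2 immunoprecipitations, IP5 and IP6, used an affinity-purified antibody against the protein, and the controls, mock 5 and mock 6, used rabbit IgG on chromatin of the same genotype and tissue. Each library came from about 200 mg of panicles, so the signal averages over the stages and cell types of that size range. IP5 and IP6 had 9142837 and 15934402 uniquely mapped reads, and mock 5 and mock 6 had 13248694 and 16742118. A region is a stretch that the authors merged from overlapping peaks of all 3 deposited lists, which set IP5 against mock 5, IP5 against mock 6, and IP6 against mock 6. These lists are written IP5/mock 5, IP5/mock 6 and IP6/mock 6, and where 3 folds follow a gene without a list they stand in that order. A fold is the authors' value for 1 IP library over 1 mock library and carries no replicate error. The calls IP5/mock 5 and IP6/mock 6 share no library and are called independent, while IP5/mock 6 shares a library with each. Genes were assigned to regions up to 4 kb away. Differences between F-box genes and other genes are descriptions and were not tested.

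F-box proteins are the subunits of SCF ubiquitin ligases that choose the substrate. The F-box itself holds SKP1, which joins the protein to a cullin scaffold, and other domains bind the protein that is to receive ubiquitin and be degraded. Plant genomes hold very many F-box genes, and a few of them are hormone receptors or hormone response regulators. OsMADS2 belongs to the PISTILLATA branch of the floral MADS proteins and is known for its part in lodicule development.

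Most of the F-box genes carry no name beyond an F-box number. That holds for 26 of the 32, and the function of most of these cannot be given from the table. The other 6 are OsEBF2, OsLC4, OsCtb1 and the tubby-like genes OsTLP3, OsTLP8 and OsTLP14. OsEBF2 is named after the EIN3-binding F-box proteins, which in Arabidopsis target EIN3, a transcription factor of ethylene signaling, for degradation. OsLC4 is named in rice for leaf inclination, and OsCtb1 is named in rice for cold tolerance at the booting stage. Tubby-like proteins of plants join an F-box to a tubby domain that binds membrane phosphoinositides.

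The regions lay at the start, inside, upstream and downstream of these genes in similar numbers. A region crossed the gene start in 8 of 33 region-gene pairs (24.2%, exact 95% interval 11.1 to 42.3), against 21.6% of all 2862 pairs in the table. Another 8 (24.2%) lay inside the gene, against 16.4% of all pairs. Upstream regions made up 7 pairs (21.2%, all pairs 25.7%) and downstream regions 10 pairs (30.3%, all pairs 29.2%). No region crossed the gene end or covered a whole F-box gene. A count of 0 of 33 allows a share of up to 10.6% (exact 95% interval), and 4.82% and 2.24% of all pairs had those positions. In all, 16 of 33 pairs (48.5%) had a region that touched the gene, against 45.1% of all pairs. In every position the share over all pairs lay within the interval of the F-box genes.

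**Figure D1:**
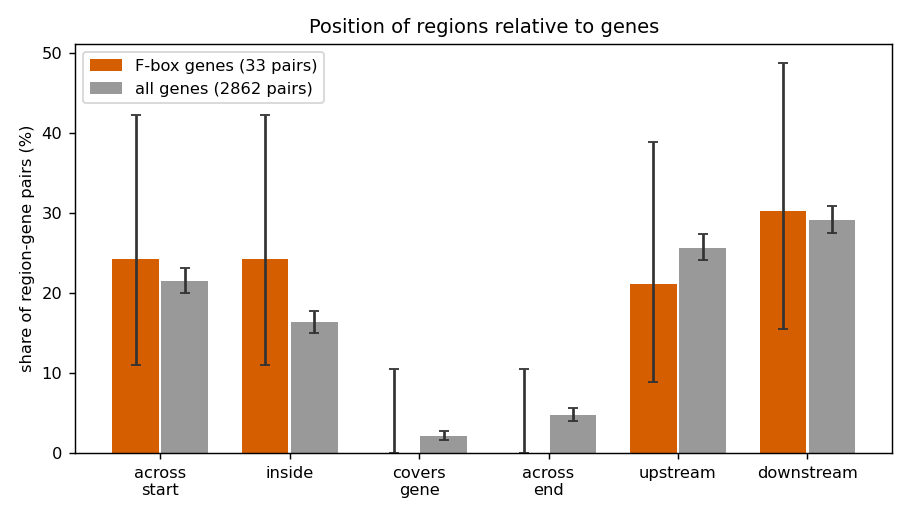
Share of region-gene pairs in each position, for the F-box genes (33 pairs, orange) and for all genes of the table (2862 pairs, grey). Bars show percent and error bars the exact 95% interval of the counts; every grey bar lies within the interval of its orange bar.

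Regions across the start took in part of the gene body as well as sequence before it. They began 29 to 315 bp upstream of the gene start and reached 202 to 945 bp into the gene. Inside the gene, 4 of the 8 regions also began within 67 bp of the start, those of OsTLP8, OsFbox219, OsFbox220 and OsFbox282. The OsFbox282 region begins at the first base of the gene, and the upstream region of OsFbox656 ends at the base just before the start of its gene, so both sit at the limit between position classes. Exons, introns and untranslated regions were not told apart, because the gene table gives the span of each gene only.

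**Figure D2:**
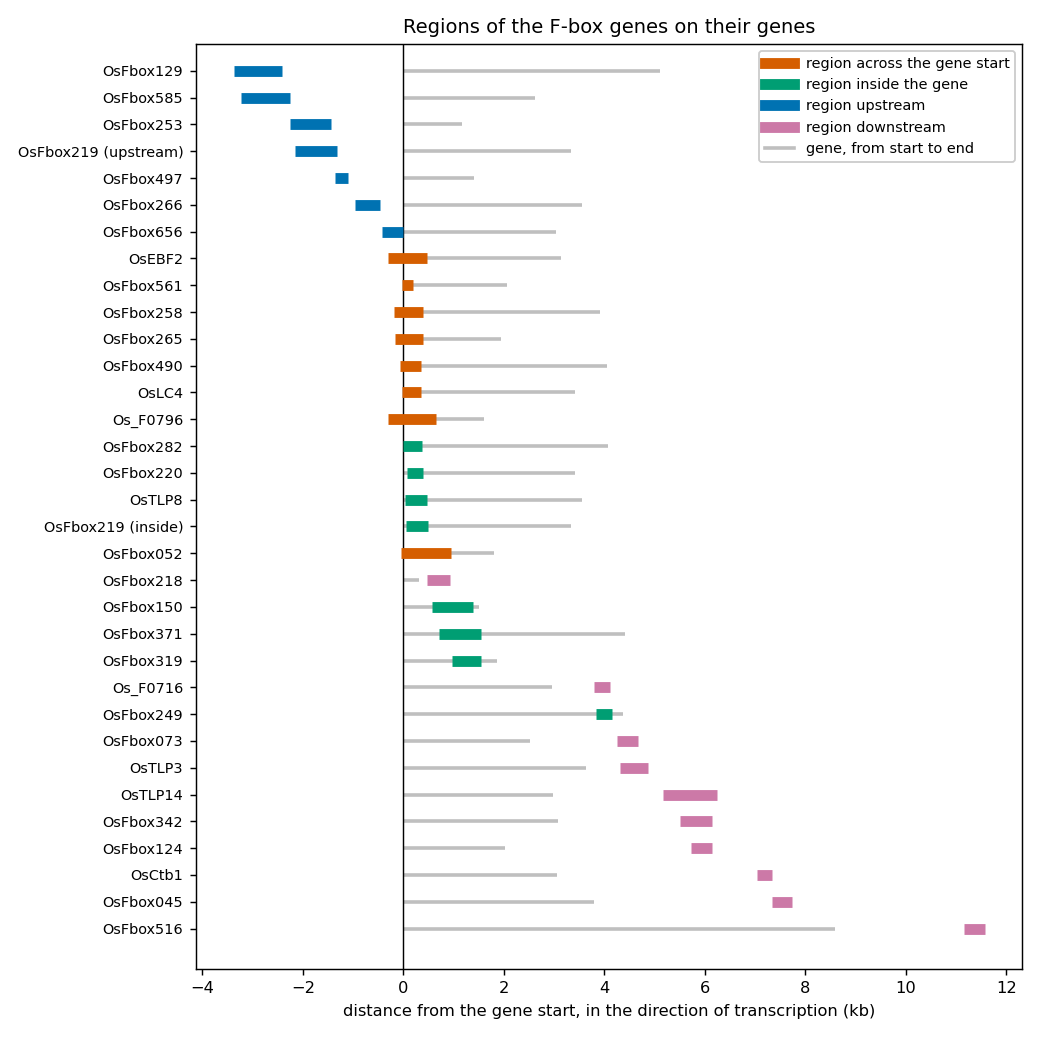
Each of the 33 regions (coloured bar) drawn to scale on its F-box gene (grey line), as distance in kb from the gene start in the direction of transcription. The 8 regions across the start and the 4 that begin just after it stand close to 0, with the 7 upstream regions above them and most of the 10 downstream regions at the bottom.

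OsEBF2 and OsFbox052 had regions across the gene start with high folds in both independent calls. OsEBF2 (Os02g0200900) had a region on chromosome 2 (5630793 to 5631569) with a fold of 4.95 in IP5/mock 5, 4.76 in IP5/mock 6 and 5.14 in IP6/mock 6. OsFbox052 (Os01g0921800) had 5.71, 5.12 and 4.86, at chromosome 1 (40257679 to 40258664). These were the only 2 of 33 F-box regions with a fold of at least 4 in both independent calls (6.06%, against 7.56% of all 1442 regions). Among all regions OsEBF2 ranked 186th by fold in IP5/mock 5 and 47th in IP6/mock 6, and OsFbox052 ranked 87th and 76th. The peaks of the independent calls overlapped each other by 722 bp at OsEBF2, the longest overlap among the F-box regions, and by 515 bp at OsFbox052. The OsEBF2 region also crosses the end of the neighbouring gene Os02g0200950, so the table does not tell which gene it belongs to. OsFbox052 is the only gene of its region.

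The leaf inclination gene OsLC4 (Os01g0923900) came next among the regions across a start. Its region on chromosome 1 (40445984 to 40446376) had folds of 4.56 in IP5/mock 5, 3.44 in IP5/mock 6 and 3.48 in IP6/mock 6. OsLC4 and OsFbox052 lie 184298 bp apart, and each has a region of its own. Within 4 kb of OsLC4 no list held any other peak.

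The remaining 5 regions across a start had a lower fold in IP6/mock 6 than in either IP5 list. OsFbox258 (Os05g0425700, chromosome 5, 20846998 to 20847556) had 3.53, 3.45 and 2.82 in IP5/mock 5, IP5/mock 6 and IP6/mock 6. The OsFbox258 region also crosses the end of the neighbouring gene Os05g0425600. OsFbox265 (Os05g0490300, chromosome 5, 24091301 to 24091852) had 3.08, 2.84 and 2.64. OsFbox490 (Os09g0449600, chromosome 9, 16834477 to 16834908) stood farther apart between replicates, with 3.91, 4.32 and 2.25. At OsFbox490 the IP6 value lay well below both IP5 values, while at OsFbox258 and OsFbox265 the lists were closer. OsFbox561 (Os10g0566300, chromosome 10, 22425649 to 22425880) had the narrowest F-box region, 232 bp, with 2.31, 3.11 and 2.11. Os_F0796 (Os04g0385600, chromosome 4, 18906498 to 18907457) had 3.39, 4.57 and 2.61, but its IP5/mock 5 and IP6/mock 6 peaks do not overlap. They lie 140 bp apart and are joined by the IP5/mock 6 peak.

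Inside gene bodies, OsFbox371 and OsFbox150 were the only genes whose region had a fold of at least 3 in both independent calls. OsFbox371 (Os07g0442000, chromosome 7, 14916756 to 14917589) had 4.60 in IP5/mock 5, 4.02 in IP5/mock 6 and 3.24 in IP6/mock 6. OsFbox150 (Os03g0399400, chromosome 3, 16171485 to 16172293) had closer values, 3.57, 3.50 and 3.23. Its region spans 809 bp of a gene of 1504 bp, yet the peaks of the independent calls share only 48 bp, the shortest overlap of any F-box region with one. Neither gene shared its region with another gene of the table. The tubby-like gene OsTLP8 (Os02g0705300, chromosome 2, 29108555 to 29108979) had a region that began 40 bp into the gene, with 3.03, 4.01 and 2.81.

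OsFbox219 and OsFbox220 form the only pair of F-box genes within 50 kb of each other. They lie on chromosome 4 in opposite orientation with 19414 bp between them, and each had a region within the first 488 bp of the gene. The inner region of OsFbox219 (Os04g0479500, 23978924 to 23979362) had 5.05 in IP5/mock 5, 2.96 in IP5/mock 6 and 2.11 in IP6/mock 6, the widest gap between independent calls among regions inside genes. Its second region, 1314 bp upstream of the start (23980727 to 23981565), had 4.68, 4.03 and 2.98. Another gene, Os04g0479550, lies nearer to that second region, at 333 bp. The region of OsFbox220 (Os04g0479800, 23998894 to 23999228) had 2.91, 4.83 and 2.92. IP5 thus gave the higher value over mock 5 at OsFbox219 (inner region) and over mock 6 at OsFbox220, with the same IP library.

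Between the regions of OsFbox219 lay a further place where the independent calls met. A peak of IP5/mock 5 (23979568 to 23980057, fold 2.54) and one of IP6/mock 6 (23979507 to 23979750, fold 3.07) overlapped by 183 bp, in the 645 bp before the gene start. No peak of IP5/mock 6 lay there, so the place does not meet the authors' rule of 3 lists. Around the 32 genes (4 kb on either side) only 1 other such overlap lay outside the regions. It stood upstream of OsFbox052, where a peak of IP5/mock 5 (40262043 to 40262237, fold 2.16) and one of IP6/mock 6 (40262007 to 40262191, fold 1.99) shared 149 bp, and IP5/mock 6 also had a peak (fold 2.72). Peaks of all lists overlap there, yet the place is not among the authors' regions. Over all 1442 regions, the lowest value of the highest fold per region was 2.00 in each list. Why the place is not a region was not tested.

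**Figure D3:**
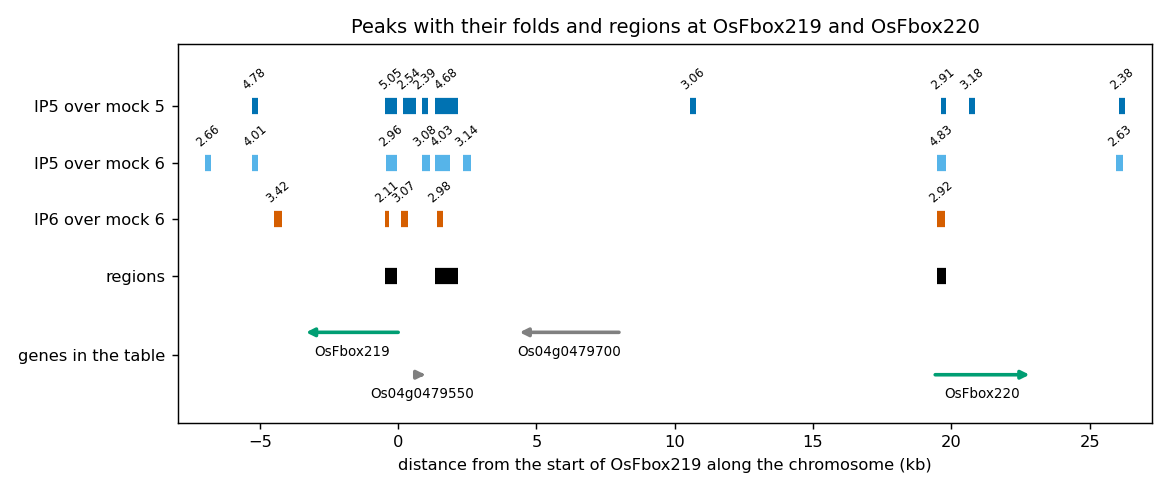
Peaks of the 3 lists with their folds (coloured bars with numbers), merged regions (black) and genes of the table (arrows, F-box genes in green) around OsFbox219 and OsFbox220, against distance in kb from the start of OsFbox219 along the chromosome. The IP6/mock 6 row has 5 peaks in this stretch, and 3 of them fall in the black regions.

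Among upstream regions the highest IP6 folds were at OsFbox129 and OsFbox585, and in both another gene lies at the region. OsFbox129 (Os03g0167800) had a region 2412 bp upstream on chromosome 3 (3661261 to 3662227), with 3.25 in IP5/mock 5, 4.47 in IP5/mock 6 and 5.13 in IP6/mock 6. That region crosses the start of OsPP44, a protein phosphatase gene, and the peaks of the independent calls lie 115 bp apart within it. OsFbox585 (Os11g0202400) had 3.52, 3.93 and 4.31 at 2245 bp upstream (chromosome 11, 5178369 to 5179361), where the region covers the whole gene Os11g0202500. The region is thus nearer to another gene than to the F-box gene in both cases.

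The other upstream regions had higher folds in IP5/mock 5 than in IP6/mock 6, apart from that of OsFbox656. OsFbox253 (Os05g0177400, chromosome 5, 4624484 to 4625294) had 4.80, 3.73 and 3.20 at 1438 bp upstream. Another gene, Os05g0177500, lies nearer to that region, at 1179 bp. OsFbox497 (Os09g0506450, chromosome 9, 19594987 to 19595247) had 4.19, 2.98 and 2.32 at 1101 bp upstream, and no other gene of the table lies near that region. OsFbox253 and OsFbox497 both had a fold in IP6/mock 6 below that of IP5 over either mock.

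Downstream regions were the largest class, and they lay at another gene about as often as in the table as a whole. Their distances ran from 165 to 3975 bp beyond the gene end, and 7 of the 10 (70%) touched another gene of the table, against 70.8% of all 836 downstream pairs. The F-box gene was the nearest gene in 1 of the 10 (10%), OsTLP3, against 15.2% of all downstream pairs. OsFbox073 (Os02g0202900) had the highest IP5/mock 5 fold of this class, 5.17, with 4.62 in IP5/mock 6 and 2.61 in IP6/mock 6. Its region, 1722 bp downstream (chromosome 2, 5753232 to 5753645), lies inside Os02g0202800. OsFbox124 (Os02g0825700, 3710 bp downstream, chromosome 2, 35477808 to 35478233) had 2.64, 3.98 and 3.36. OsFbox342 (Os07g0160500, 2437 bp downstream, chromosome 7, 3257898 to 3258531) had 2.30, 3.32 and 3.30 in a region that crosses the start of OsFLA16, a fasciclin-like arabinogalactan protein gene. OsFbox073 thus had the higher fold in IP5/mock 5, and OsFbox124 and OsFbox342 in IP6/mock 6.

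Among the named genes with downstream regions, OsTLP3 (Os04g0687900, chromosome 4, 35180473 to 35181018) had its region 687 bp beyond the end, with 2.13 in IP5/mock 5, 4.21 in IP5/mock 6 and 3.38 in IP6/mock 6. The IP5 value was thus the lowest of the lists over mock 5 and the highest over mock 6. OsTLP14 (Os03g0351400) had 3.21, 4.73 and 2.99 in a region 2185 bp downstream (chromosome 3, 13161309 to 13162381) that crosses the start of OsBmy4, a beta-amylase gene. Each tubby-like gene therefore had its highest fold in IP5/mock 6. That list also had the highest median fold over all 1442 regions, 3.82 against 3.31 in IP5/mock 5 and 3.08 in IP6/mock 6. OsCtb1 (Os04g0619300) was the most distant, 3975 bp from a region inside the kinase gene OsRLCK160 (chromosome 4, 31465989 to 31466287), with 3.34, 2.96 and 2.74.

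The cold tolerance gene OsCtb1 also had peaks at its own start in every list, although none is part of a region. The IP5 peaks lay 27 to 412 bp into the gene over mock 5 (fold 3.09, q = 4.37e-07) and 21 to 403 bp over mock 6 (fold 2.21, q = 2.79e-04). The IP6/mock 6 peak lay 484 to 1035 bp into the gene (fold 3.48, q = 3.38e-08). IP5 and IP6 peaks are 71 bp apart, so the authors' overlap rule does not join them.

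Peaks of single lists were also counted at the starts of all F-box genes, whether or not the peak was part of a region. Within 500 bp of the start, 16 of the 32 F-box genes (50%) had a peak in IP5/mock 5, against 55.6% of all 2589 genes. In IP5/mock 6 it was 23 genes (71.9%, all genes 70.8%), and in IP6/mock 6 it was 19 genes (59.4%, all genes 48.1%). In every list at once 14 genes (43.8%) had one, against 40.7% of all genes. Among these are the 8 genes with a region across the start and the 4 whose inside region begins just after it. Their own regions hold start peaks in every list, and a peak in each list was required by the authors' rule. For them the count therefore adds nothing to the regions. Of the 16 F-box genes with no region touching the gene, 11 (68.8%) had a start peak in at least 1 list, against 61.9% of the 1367 genes of the table with no region touching them. In all lists it was 2 of the 16 (12.5%), OsCtb1 and OsFbox656, against 9% of those 1367 genes, so both shares were near the background. The start peaks of OsFbox656 are the peaks of its own region, which ends just before the gene start. Those of OsFbox266 in IP5/mock 5 and IP6/mock 6, and of OsFbox218 in IP6/mock 6, are also peaks of their own regions. The 5 with none were OsFbox073, OsFbox124, OsFbox342, OsFbox516 and OsTLP14, all with downstream regions and singled out after their values were seen.

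**Figure D4:**
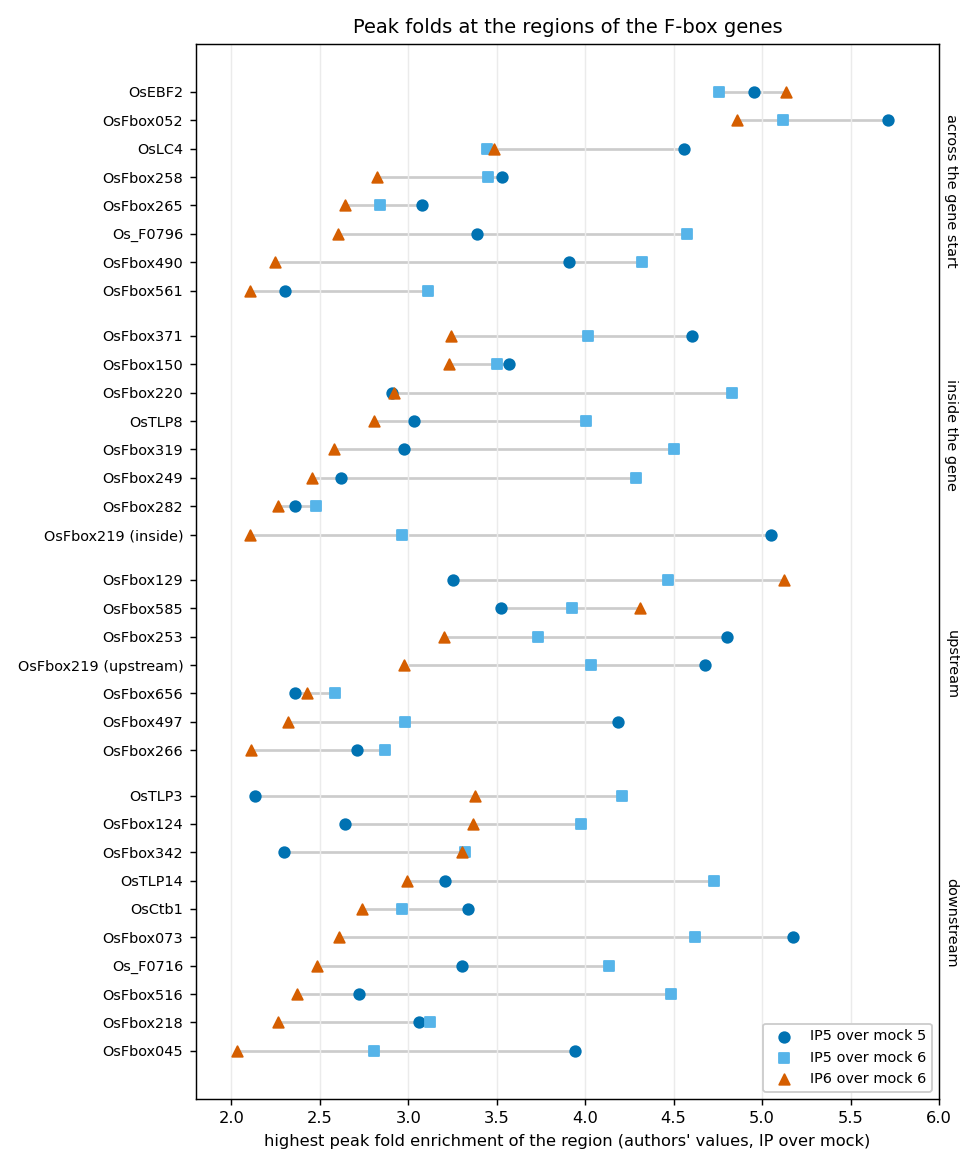
Highest peak fold of each F-box region in the 3 lists (circle IP5/mock 5, square IP5/mock 6, triangle IP6/mock 6), grouped by position; each grey line joins the values of 1 region. The triangle is the lowest point in most rows, and OsEBF2, OsFbox129 and OsFbox585 are the rows where it is the highest.

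In IP6/mock 6 the F-box regions had a lower median fold than the regions of the table as a whole. The median of the highest fold per region was 2.74 over the 33 F-box regions (range 2.03 to 5.14, 95% interval of the median 2.46 to 3.20), against 3.08 over all 1442 regions, which lies inside that interval. A fold of at least 3 was reached by 11 F-box regions (33.3%), against 54.8% of all regions. By position these were 3 of 8 across the start, 2 of 8 inside, 3 of 7 upstream and 3 of 10 downstream. For IP5/mock 5 the median was 3.31 over the F-box regions and 3.31 over all regions, and 22 F-box regions (66.7%) reached 3, against 60.7% of all. For IP5/mock 6 it was 3.98 over the F-box regions and 3.82 over all, and 25 F-box regions (75.8%) reached 3, against 82.9% of all. Both independent calls reached 3 in 8 F-box regions (24.2%), against 34.7% of all regions. These are OsEBF2, OsFbox052, OsLC4, OsFbox150, OsFbox371, OsFbox129, OsFbox253 and OsFbox585.

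F-box regions had a median width of 464 bp against 553 bp over all regions. F-box regions that reached 3 in IP6/mock 6 had a median width of 809 bp, and the other 22 had 428.5 bp. Over all regions the median widths were 600 bp for those that reached 3 and 504.5 bp for the others. The part of width in the IP6 folds was not tested.

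The order of the F-box regions by fold differed between the independent calls. Across the 33 regions Pearson's r between the folds of IP5/mock 5 and IP6/mock 6 was 0.33 and Spearman's rho 0.19, and over all 1442 regions they were 0.21 and 0.12. Regions are not replicates, and all were chosen by having peaks in both calls. The fold of IP5/mock 5 exceeded that of IP6/mock 6 in 25 of 33 F-box regions (75.8%) and in 57.1% of all regions.

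**Figure D5:**
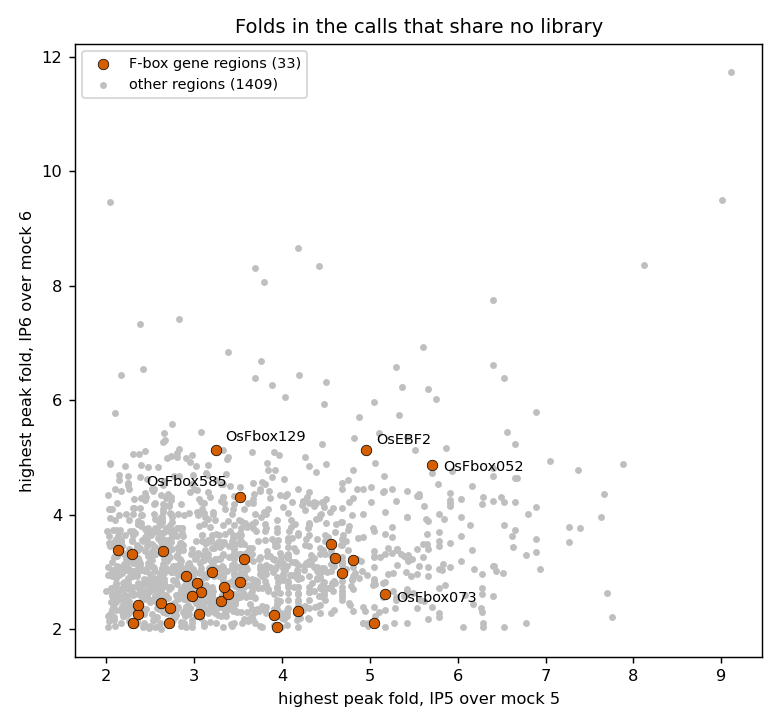
Highest peak fold per region in IP5/mock 5 (x axis) and IP6/mock 6 (y axis) for the 33 F-box regions (orange) and the other 1409 regions (grey). Most orange points lie low on the y axis, and OsEBF2 and OsFbox052 are the F-box regions with folds above 4 on both axes.

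Peak calls were firm in IP5 and weaker in IP6 for a few genes. The largest q over the F-box regions was 0.00131 in IP5/mock 5, 6.34e-06 in IP5/mock 6 and 0.0228 in IP6/mock 6. A q of at most 0.01 in all lists was met by 31 of 33 regions (93.9%), against 97.3% of all. The exceptions were the downstream region of OsFbox045 (q = 0.0228 in IP6/mock 6) and the inner region of OsFbox219 (q = 0.0184). The peaks of the independent calls overlapped each other directly in 31 of 33 regions (93.9%, all regions 93%), by a median of 171 bp. OsFbox129 and Os_F0796 were the exceptions.

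The 9 F-box genes outside the naming rule are OsFbox045, Os_F0716, OsFbox218, OsFbox249, OsFbox266, OsFbox282, OsFbox319, OsFbox516 and OsFbox656. Their folds ran from 2.36 to 3.94 in IP5/mock 5, from 2.48 to 4.50 in IP5/mock 6 and from 2.03 to 2.58 in IP6/mock 6. OsFbox218 is the shortest gene of the set, 309 bp, and OsFbox516 the longest, 8581 bp. Over the 32 genes the median length was 3069 bp, against 2655 bp over all genes of the table.

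The F-box gene was the nearest or joint nearest gene of its region in 20 of 33 pairs (60.6%), against 56.7% of all pairs. It was the only nearest gene in 17 pairs and the only gene of the region in 11. The shares of all pairs for these counts are not given here, so they cannot be compared. A neighbour that was singled out after the list was seen is OsUBP25, a ubiquitin-specific protease gene 2070 bp from the region of OsFbox266. By chromosome, the F-box genes were most frequent on chromosome 5 (6 of 209 genes in the table, 2.87%) and chromosome 4 (6 of 215, 2.79%). Chromosome 8 had 0 of 159, and F-box genes were 1.24% of all genes listed.

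Other genes of the ubiquitin pathway were few in the table by the same kind of symbol search. Besides OsEBF2 and the excluded OsAFB2, 5 genes were found with 7 region-gene pairs. OsUBC9, also named Rad6, a ubiquitin-conjugating enzyme gene, had 3 regions. Its highest folds were 6.68 for IP5/mock 5 and 4.65 for IP6/mock 6, in a region inside the gene (chromosome 3, 32933454 to 32934165). OsRUB2, which encodes the cullin modifier NEDD8, had a region across its start with folds of 2.10 and 4.44 in these calls. OsUBC43 (3.75 and 2.06, across the start) and OsUBC22 (2.32 and 2.32, 1399 bp downstream) encode further conjugating enzymes. OSK4 (4.43 and 2.89, 2285 bp upstream) carries a symbol used in rice both for SKP1-like proteins and for SnRK1-type kinases. No gene was found by a cullin, RBX1, CAND1 or COP9 signalosome symbol, and the number of such genes that could have been assigned is not known here.

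In the authors' deposited table of 77 gene ontology terms, 7 of the 32 genes (21.9%) appear, against 23.4% of all genes in the gene table. Terms used to leave genes out cannot hold any of them. In the authors' deposited table the term ubiquitin-protein ligase activity holds 17 genes with a false discovery rate of 0.0388, and OsFbox258 is the only F-box gene of the set among them. OsFbox258 is also listed there under lateral root formation and cellular response to auxin stimulus. OsFbox052, OsTLP3 and OsTLP14 are listed under response to salt stress, Os_F0716 and OsCtb1 under nucleus, Os_F0716 also under regulation of cell proliferation, and OsFbox561 under response to wounding.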

How the data were processed

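ChIP-seq was made from OsMADS2 and IgG mock immunoprecipitations with 2 libraries each, numbered 5 and 6, described in the deposited sheets as biological replicates. Per the submitters' processing notes the tools were fastp, Bowtie2, SAMtools, MACS2 and deepTools. No version, setting or genome build is given in the sources used here, and coordinates are therefore printed exactly as deposited. The authors deposited read counts per library. They deposited for each peak a fold (a ratio of IP to mock) and −log10 values of p and q, with peaks called per pair of libraries and not pooled. The false discovery rates of the ontology terms were also deposited as −log10 values by the authors. Per the file headers, peaks overlapping in 3 lists were merged and assigned to nearby genes.

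From these files, peaks were matched to regions at 1 bp or more of overlap, and the highest fold per region was taken. Positions recomputed from coordinates equalled the deposited ones in all pairs. Shares have exact Clopper-Pearson 95% intervals, which cover counting error only. The gene members and lists were chosen with earlier results of these data known. Named genes were the 8 of highest fold in IP5 over mock 5, the next 8 in IP6 over mock 6, genes with several regions or a region across the start, and genes with another name. This gave 23 genes. Overlap counts were tested on simulated data and against bedtools 2.31.1. Region and promoter sequences were not used here, so the planned promoter motif search was not made. Python 3.11.15, numpy 2.4.6, pandas 2.3.3 and scipy 1.17.1 were used.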

Additional observations from a re-analysis of the deposited data

How the results depend on the processing

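The number of F-box genes was 32 under the wider search of F-box names and in the separately deposited gene set, 35 with the left-out terms kept, and 31 with cellular response to auxin stimulus also left out, an alternative chosen after seeing the data. The share of regions across the gene start (24.2%) ran from 24.2% to 40% under the other ways of counting. It was highest when only pairs with the F-box gene nearest were counted (8 of 20). A region across a start is at distance 0, so its gene is always nearest or joint nearest. Over all genes of the table the same count was 618 of 1622 pairs. The F-box share was 39.4% when midpoints up to 2 kb upstream were added, and the like share over all pairs is not given here. Regions with a peak in all 3 lists numbered 33, and 31 at a q of at most 0.01. With peaks of a fold of at least 3 the number was 8, since fewer peaks remain. Without replicate 5 and without replicate 6 it was 33 and 33, as every region has a peak in each list by the authors' rule. The median fold of IP5 was 3.98 over mock 6, against 3.31 over mock 5. The cause was not tested. The median fold in IP6 over mock 6 (2.74) ran from 2.62 to 2.81 under the alternatives. No paired analysis was possible because the results come from no test across libraries. Folds of single library pairs have no replicate error, and read counts per peak and library were not used here. The planned promoter motif comparison was not run.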
